A study of Mus musculus with 6 samples.

Results

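Members of the GABA-A receptor family were followed in RNA from C57 mouse striatum, the basal ganglia nucleus that receives cortical and thalamic input. The 7 subunit genes Gabra2, Gabra3, Gabra4, Gabra5, Gabrb1, Gabrb2 and Gabrd were chosen by name, and all 7 were found among the 55335 gene identifiers of the count tables. RNA-seq libraries came from 3 samples of wild-type genotype, the control group, and 3 samples labelled as PDE5A overexpressing, PDE5A being a phosphodiesterase that hydrolyses cyclic GMP. The comparison asks how striatal transcripts differ when PDE5A is overexpressed. How PDE5A was raised, what the control animals received, and the age and sex of the mice are not stated in the labels.

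GABA-A receptors are chloride channels assembled from several homologous subunits around a central pore, and GABA opens them to inhibit the cell. The beta subunits help form the GABA site, and the kind of alpha subunit sets much of the receptor's place on the cell and its drug response. Receptors with alpha2 or alpha3 serve mainly synaptic inhibition. Receptors that pair alpha4 with delta lie outside synapses and carry tonic inhibition, as in the medium spiny neurons that make up most of the striatum, and alpha5 receptors are also largely extrasynaptic and are known best from hippocampus and cortex.

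The libraries held 33013698 to 42288789 counts, and each member had at least 850 counts in every library. Levels are given as CPM, each gene's counts scaled to a common library size with TMM factors. Pde5a, the check of the labels, had 3.72 to 6.09 CPM in the control libraries and 592 to 760 CPM in the overexpression libraries. Neuronal markers of striatum were abundant in every library, with Ppp1r1b at 991 to 1907 CPM. The libraries differed in markers of neighbouring tissue. The 11 cortical glutamatergic markers, all 11 of them tested, summed to 115 to 1014 CPM in the control libraries and 318 to 1285 CPM in the overexpression libraries, and none of the 11 was at 0. The 12 shared medium spiny neuron markers summed to 6824 to 11710 CPM in the control libraries and 5784 to 11570 CPM in the overexpression libraries. The 12 choroid plexus markers summed to 54.5 to 74.5 CPM in the control libraries and to 543, 2503 and 34.8 CPM in overexpression libraries 1 to 3. In whole tissue, fewer cells of a type and less RNA per cell cannot be told apart.

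Positions of the members are given in the mm10 assembly. Gabra2 (ENSMUSG00000000560, chr5:70957597-71095849, minus strand), Gabra4 (ENSMUSG00000029211, chr5:71569749-71658308, minus strand) and Gabrb1 (ENSMUSG00000029212, chr5:71658113-72149037, plus strand) share a cluster on chromosome 5. Gabra4 and Gabrb1 start head to head, and 46 bases of their annotated exons overlap on opposite strands. Gabra5 (ENSMUSG00000055078) lies at chr7:57407672-57510059 on the minus strand, and 148 of its 2974 exon bases overlap exons on the opposite strand. Gabrb2 (ENSMUSG00000007653) lies at chr11:42419757-42629028 on the plus strand, Gabra3 (ENSMUSG00000031343) at chrX:72432681-72656848 on the minus strand and Gabrd (ENSMUSG00000029054) at chr4:155384980-155398112 on the minus strand. The strand setting of the counting is not stated, so reads from such overlaps could be counted for either gene.

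The RefSeq promoter table (build GRCm38.p6) held windows for 6 of the 7 members, and Gabrd had none. The 4 alpha promoters are shown because their genes fell into pairs with opposite patterns over the libraries, Gabra3 with Gabra5 and Gabra2 with Gabra4. Each run gives bases before a RefSeq start of the gene, 5′ to 3′ on the gene's strand, and capitals mark matches to the motifs searched. Windows are chrX:72656920-72657169, chr7:57510060-57510309 and chr5:71095850-71096099, all 250 bases, and chr5:71658364-71658558, which was cut to 195 bases to leave out an exon of Gabrb1.
Gabra3: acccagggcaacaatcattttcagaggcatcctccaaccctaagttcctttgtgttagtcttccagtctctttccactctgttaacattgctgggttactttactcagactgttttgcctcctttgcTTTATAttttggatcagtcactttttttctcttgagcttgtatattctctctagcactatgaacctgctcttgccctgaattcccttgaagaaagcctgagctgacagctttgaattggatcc
Gabra5: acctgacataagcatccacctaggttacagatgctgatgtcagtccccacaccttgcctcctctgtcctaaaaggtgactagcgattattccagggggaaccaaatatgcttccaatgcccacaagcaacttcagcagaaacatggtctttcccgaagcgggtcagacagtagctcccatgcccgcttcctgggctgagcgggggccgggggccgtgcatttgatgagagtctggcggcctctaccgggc
Gabra2: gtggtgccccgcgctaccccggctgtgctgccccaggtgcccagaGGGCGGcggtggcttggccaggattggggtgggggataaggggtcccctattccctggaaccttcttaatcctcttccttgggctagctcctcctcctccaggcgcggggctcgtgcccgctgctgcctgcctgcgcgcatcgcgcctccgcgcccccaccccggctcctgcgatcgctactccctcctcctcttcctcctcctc
Gabra4: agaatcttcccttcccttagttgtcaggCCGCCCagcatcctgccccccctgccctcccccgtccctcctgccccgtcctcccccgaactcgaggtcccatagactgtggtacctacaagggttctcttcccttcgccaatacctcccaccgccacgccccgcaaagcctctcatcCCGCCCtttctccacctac
The 5 motifs, searched on both strands, were the GC box GGGCGG, the TATA box TATAAA, the cAMP response element TGACGTCA, the EGR site GCGTGGGCG and the E-box CAGCTG. The Gabra2 window held 1 GC box and the Gabra4 window 2, and 32.7% of the 32851 windows in the table held at least 1. The Gabra3 window shown held 1 match to the TATA box letters, on the strand opposite to the gene, as TTTATA. On either strand, 12.4% of windows held such a match. The Gabra3 window shown had no CpG and a G and C content of 42.4%. Another Gabra3 window, chrX:72656808-72657057, overlapped it and is not shown. That window held the same TTTATA match and no CpG, with a G and C content of 39.2%. The G and C content was 56.4% before Gabra5, 61.2% over the full window before Gabra4 and 70.0% before Gabra2, and the median of all windows was 52.4%. The Gabra5 window matched none of the 5 motifs. These letters describe the windows and do not show that a factor binds there.

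Gabra3, which encodes the alpha3 subunit, varied most between libraries, 2.51-fold from the lowest to the highest. It had 86.0, 49.1 and 113.8 CPM in control libraries 1 to 3 and 54.1, 79.2 and 123.1 CPM in overexpression libraries 1 to 3. The lowest control library lay below every overexpression library and the highest overexpression library above every control library, so the groups overlapped across nearly their whole range. The log2 fold change of overexpression over control was 0.04 (SE 0.42), with a 95% interval from −1.02 to 1.10. Without control library 2 it was −0.22 and without overexpression library 3 it was −0.32, so its direction rested on single libraries.

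Gabra5, for the alpha5 subunit, had 25.4, 20.7 and 39.6 CPM in the control libraries and 22.6, 27.2 and 35.8 CPM in the overexpression libraries. Library 3 was the highest of each group, as it was for Gabra3, and the groups overlapped. The log2 fold change was −0.003 (SE 0.28), with an interval from −0.68 to 0.68.

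Gabra4, for the alpha4 subunit, had 177.6, 207.1 and 161.2 CPM in the control libraries and 220.3, 178.4 and 146.9 CPM in the overexpression libraries. The library lowest in Gabra3 was the highest in Gabra4 in each group, and library 3 was the lowest in both. The group means were 182 ± 23.3 CPM in the control libraries and 182 ± 36.8 CPM in the overexpression libraries (SD, n = 3). The log2 fold change was −0.001 (SE 0.16), with an interval from −0.38 to 0.37.

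Gabra2, for the alpha2 subunit, had 65.0, 77.4 and 67.8 CPM in the control libraries and 70.4, 69.7 and 54.5 CPM in the overexpression libraries. Overexpression library 3 stood below the other 5 libraries, which lay between 65.0 and 77.4. The log2 fold change was −0.11 (SE 0.12), and the interval of the fold ran from 0.768 to 1.115. Without overexpression library 3 the log2 fold change was −0.002, and without control library 2 it was −0.03.

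Gabrd, for the delta subunit of extrasynaptic receptors, had 90.7, 122.5 and 82.2 CPM in the control libraries and 99.0, 96.0 and 83.3 CPM in the overexpression libraries. Control library 2 was the highest of all 6, and the overexpression libraries lay inside the control range. The log2 fold change was −0.09 (SE 0.15), with an interval from −0.45 to 0.27, and it was 0.10 without control library 2.

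Gabrb1, for the beta1 subunit, varied least, 1.28-fold over the libraries. It had 140.8, 149.3 and 146.4 CPM in the control libraries and 143.4, 127.1 and 116.8 CPM in the overexpression libraries. Overexpression libraries 2 and 3 lay below every control library and overexpression library 1 lay among them. Gabrb1 had the smallest p of the members: the log2 fold change was −0.17 (SE 0.09), the interval of the fold ran from 0.772 to 1.02, and the unadjusted p was 0.0818 with an adjusted p of 1.0 in edgeR's quasi-likelihood test. Without overexpression library 3 the log2 fold change was −0.11. Gabrb2, for the beta2 subunit, had 107.0, 93.8 and 90.0 CPM in the control libraries and 102.7, 74.7 and 88.6 CPM in the overexpression libraries. The lowest value was in overexpression library 2, and the log2 fold change was −0.13 (SE 0.12), with an interval from −0.42 to 0.16. It was −0.02 without overexpression library 2, −0.05 without control library 1 and −0.25 without overexpression library 1.

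**Figure D1:**
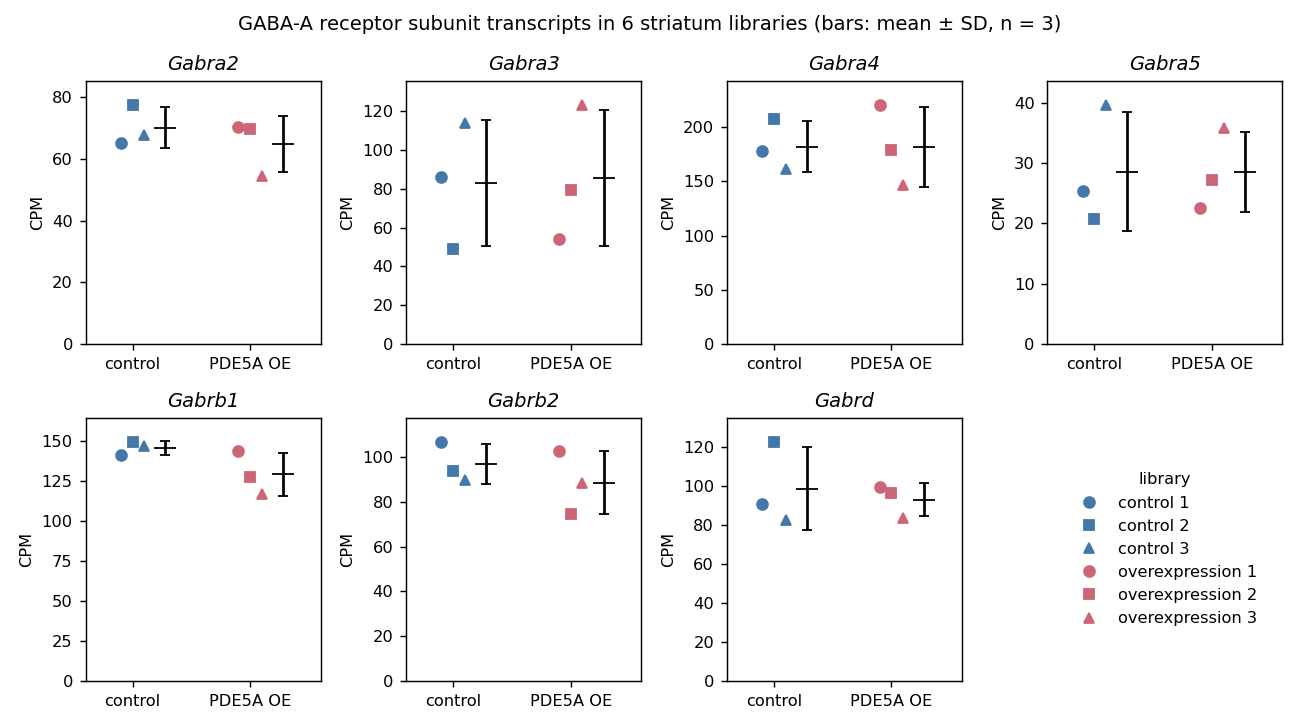
CPM of each subunit gene (y axis, starting at 0) in the control and PDE5A overexpression groups (x axis), with 1 symbol per library and the mean ± SD of 3 libraries beside it. The groups overlap in every panel, and the spread within a group is widest relative to its mean for Gabra3, from 49.1 to 113.8 CPM in the control libraries and from 54.1 to 123.1 CPM in the overexpression libraries.

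Of the 7 members, 0 passed the test at an adjusted p of 0.05 (edgeR's quasi-likelihood F-test, adjusted by Benjamini-Hochberg over the 19809 genes tested), where 0.00505% of all genes did. At an unadjusted p under 0.05 there were 0 of 7 members and 3.89% of all genes, and the DESeq2 Wald test and limma-voom each called 0 members, while DESeq2 called 0.419% of all genes. Groups did not overlap for 0 of 7 members and for 8.93% of all genes. Fold changes were negative for 6 of 7 members and for 9779 of the 19809 genes tested. Of those 6 members, Gabra4 and Gabra5 stood at −0.001 and −0.003 on the log2 scale. The members' median was −0.09 on that scale, beside 0.002 over all genes tested. Markers of several cell types also differed in direction between the groups, with 0 of them called. The 8 thalamic markers had negative fold changes in 8 of 8 cases (median −0.47), and their mean level was 3.21 to 3.56 log2 CPM in the control libraries and 2.71 to 2.97 in the overexpression libraries, without overlap. Astrocyte markers were negative in 10 of 10 cases (median −0.19). Their mean level was 7.73 to 7.86 log2 CPM in the control libraries and 7.58 to 7.71 in the overexpression libraries, also without overlap. Cortical glutamatergic markers were positive in 11 of 11 cases (median 0.43) and choroid plexus markers in 12 of 12 (median 3.25), both with levels that overlapped between groups. Lymphocyte markers were positive in 5 of 5 cases tested (median 2.24). The 6 listed summed to 0.382 to 1.86 CPM in the control libraries and 4.03 to 6.71 CPM in the overexpression libraries, without overlap. Shared medium spiny neuron markers were positive in 1 of 12 cases (median −0.03), with levels that overlapped. The part of the thalamic, astrocyte, choroid plexus and lymphocyte lists in the members' fold changes was not tested. The intervals differ in width: that of Gabrb1 spans folds from 0.772 to 1.02, and that of Gabra3 spans folds from 0.494 to 2.15. In this fit, folds of Gabra3 within that interval were thus compatible with these libraries.

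Summed over the 7 genes, the level was 692, 720 and 701 CPM in the control libraries and 712, 652 and 649 CPM in the overexpression libraries. The mean was 704 ± 14.1 CPM in the control libraries and 671 ± 35.8 CPM in the overexpression libraries (SD, n = 3). Permuting the samples exactly (exact permutation test, two-sided, on log2 values) gave p = 0.3, where 0.1 is the smallest p that 3 samples against 3 can give. The sum spanned fewer CPM over the control libraries than Gabra3 did alone, and members that were high in a library stood beside members that were low there.

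To set the subunits against each other, CPM was divided by the length of each gene's annotated exons in kilobases. On that scale the order of mean level was Gabrd at 33.3 CPM per kb, Gabra4 at 29.9, Gabra3 at 21.5, Gabrb2 at 14.6, Gabrb1 at 9.92, Gabra5 at 9.61 and Gabra2 at 8.83, over 6 libraries. Of neighbours in this order, Gabrb2 and Gabrb1 had ranges that did not overlap, and every other pair of neighbours overlapped. Gabrd exceeded Gabra4 in 5 of 6 libraries. Gabra3 moved most in rank: it had 12.5 CPM per kb in control library 2, below the 14.8 of Gabrb2, and 31.4 in overexpression library 3, where it was above Gabrd at 29.0. The order depends on the length used. With coding length Gabra4 came first at 105 CPM per kb, Gabrb1 came second at 96.6, and Gabrd followed at 71.0. Annotated exons are mostly noncoding in every member: 1422 of 13838 exon bases are coding in Gabrb1 and 1347 of 2875 in Gabrd. Comparisons of 1 subunit between libraries do not depend on its length.

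As shares of the summed level per kb of exon, Gabrd took 24.9%, 32.3% and 21.8% in control and 27.0%, 27.4% and 23.0% in overexpression. Gabra4 took 23.0%, 25.8% and 20.2% in control and 28.4%, 24.0% and 19.2% in overexpression. Gabra3 took 17.3%, 9.49% and 22.1% in control and 10.8%, 16.5% and 24.9% in overexpression. The Gabra3 share differed between libraries of 1 group by more than between group means, which were 16.3% ± 6.38 in control and 17.4% ± 7.09 in overexpression (SD, n = 3). Differences between group means were 1.09 percentage points or less for all 7 shares with all 6 libraries, but this limit rested on single libraries. With 1 library left out, the difference ran from −2.65 points (without overexpression library 3) to 4.40 (without overexpression library 1) for Gabra3, from −1.44 to 3.15 (without overexpression libraries 1 and 3 in turn) for Gabra4 and from −2.84 to 2.41 (without control libraries 3 and 2 in turn) for Gabrd. Without overexpression libraries 1 and 2 together, only overexpression library 3 stood against the controls. The difference was then 8.58 points for Gabra3, −3.87 for Gabra4 and −3.35 for Gabrd. Exact two-sided permutation tests gave p of 0.3 to 1.0, and 1.0 for each after Benjamini-Hochberg adjustment over 7 shares. The Gabrb1 share was 8.10% ± 0.0797 in control and 7.44% ± 0.709 in overexpression (SD, n = 3), an exact permutation p of 0.3. With coding length, or with counts not divided by length, its difference was −1.47 or −1.45 percentage points with an unadjusted exact p of 0.1, the smallest possible.

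**Figure D2:**
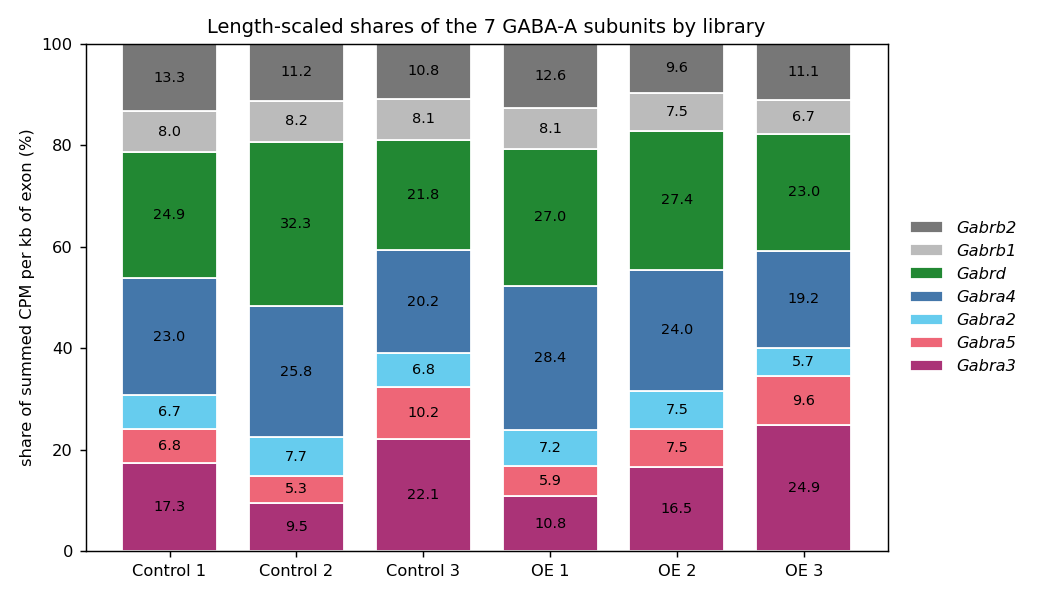
Stacked bars give each subunit's share (y axis, percent of the summed CPM per kb of exon over the 7 genes) in each of 6 libraries (x axis, OE for PDE5A overexpression). The Gabra3 segment is smallest in control 2 (9.49%) and OE 1 (10.8%) and largest in control 3 (22.1%) and OE 3 (24.9%).

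Within the 4 alpha genes, Gabra4 held 42.8%, 53.5% and 34.1% of the level per kb in control and 54.2%, 43.3% and 32.3% in overexpression. Gabra3 held 32.1%, 19.7% and 37.3% in control and 20.6%, 29.8% and 41.99% in overexpression. By exon length Gabra3 was thus the leading alpha of the 4 in library 3 of both groups and Gabra4 in the other 4 libraries, whereas by coding length, or with CPM not divided by length, Gabra4 led in all 6. The ratio of Gabra3 to Gabra4 per kb went from 0.367 in control library 2 to 1.30 in overexpression library 3. The ratio of Gabrd to Gabra4, the pair that forms extrasynaptic receptors, ran from 0.951 to 1.25 over the 6 libraries, and an exact permutation test between the groups gave p = 0.8. Ratios without Gabra3 spanned similar ranges. The highest was 1.32 times the lowest for Gabrd to Gabra4 and for Gabra4 to Gabra2. It was 1.29 times for Gabrb1 to Gabrb2 and 1.396 times for Gabrb1 to Gabra4. Ratios with Gabra3 spanned more, 3.53 times for Gabra3 to Gabra4 and 3.56 times for Gabra3 to Gabra2.

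Over the 6 libraries the members fell into 2 sets by the Pearson correlation of their log2 CPM, given here as a description. Gabra3 and Gabra5 had r = 0.94. Gabra4, Gabra2 and Gabrd had r of 0.77 to 0.80 with each other. Between the sets r ran from −0.66 for Gabra2 with Gabra5 to −0.97 for Gabra3 with Gabra4. The head-to-head neighbours Gabra4 and Gabrb1 had r = 0.65, and Gabra2, in the same cluster, had r = 0.80 with Gabrb1. Gabrb2 stood apart, with r between −0.34 and 0.51. These 6 points share library, depth and tissue makeup.

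**Figure D3:**
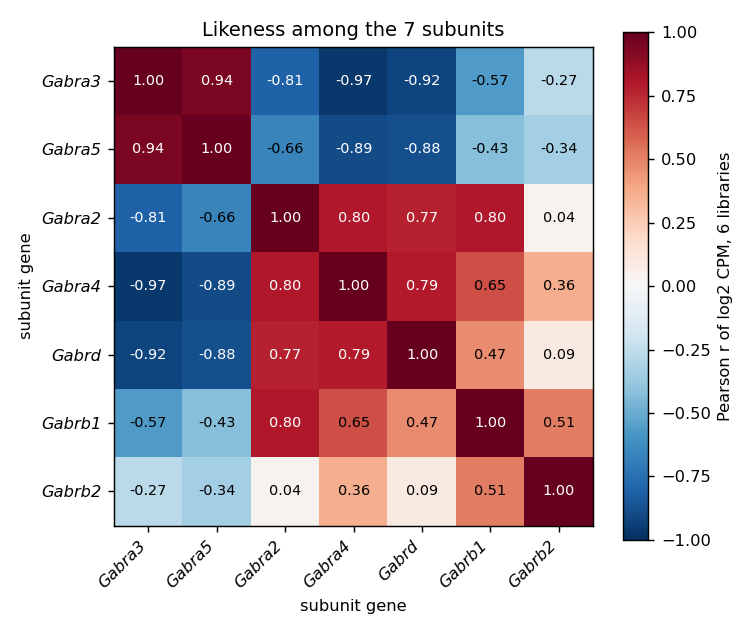
Pearson r of log2 CPM over 6 libraries for each pair of the 7 subunit genes (both axes), red for positive and blue for negative. Gabra3 and Gabra5 form a red block (0.94) that is blue against Gabra2, Gabra4 and Gabrd (−0.66 to −0.97).

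The spread of Gabra3 and Gabra5 was wide for genes of their level. The coefficient of variation over the 6 libraries was 35.8% for Gabra3 and 26.4% for Gabra5, and the median of genes within 2-fold of their mean CPM was 6.78% and 8.01%. It was 15.2% for Gabra4, 15.4% for Gabrd, 12.3% for Gabrb2, 11.2% for Gabra2 and 9.22% for Gabrb1. These also lay above the median of genes of like level, at percentiles from 68.8 for Gabrb1 to 89.8 for Gabrd. Gabra3 and Gabra5 lay at percentiles 98.9 and 95.5. Of the variance of log2 CPM, 99.8% lay within groups for Gabra3, 99.9% for Gabra5 and for Gabra4, and 96.9% for Gabrd, while 50.3% did for Gabrb1.

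Most members moved with regional marker genes. The mean level of the 11 cortical glutamatergic markers was 4.17, 1.97 and 5.01 log2 CPM over control libraries 1 to 3 and 3.34, 4.27 and 5.45 in overexpression libraries 1 to 3, and Slc17a7, the vesicular glutamate transporter of cortical neurons, went from 64.3 CPM in control library 2 to 817 CPM in overexpression library 3. The shared medium spiny neuron markers ran the other way, at 9.29, 9.71 and 8.93 log2 CPM in the control libraries and 9.68, 9.32 and 8.71 in overexpression. Gabra3 and Gabra5 followed the order of the cortical markers within each group of 3 libraries, and Gabra4 and Gabrd followed the reverse order within each group.

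Relations of the 7 members to 3 marker lists, 21 in all, were tested over the 6 libraries with exact two-sided permutation tests. The relations were added after the values of these same libraries were seen, so their p-values are descriptive and give no independent support. Gabra3 had r = 0.96 with the cortical level (p = 0.00556, adjusted p = 0.035) and Spearman's rho of 0.94 (p = 0.0167, adjusted p = 0.0583), and r was 0.98 without control library 2 and overexpression library 3, the libraries farthest from the median. Gabra5 had r = 0.90 (exact p = 0.00833, adjusted p = 0.035) and rho of 0.94 (p = 0.0167, adjusted p = 0.0583), and r was 0.94 without the same libraries. Gabrd had r = −0.97 (exact p = 0.0111, adjusted p = 0.0389) and rho of −0.89 (p = 0.0333, adjusted p = 0.0778), and r was −0.90 without them. The adjusted p of these 3 passed 0.05 for r and missed it for rho.

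Gabra4 had r = 0.98 with the medium spiny neuron level (exact p = 0.00833, adjusted p = 0.035), rho of 0.94 (p = 0.0167, adjusted p = 0.0583) and r = 0.97 without the 2 farthest libraries. With the cortical level it had r = −0.88 (exact p = 0.025, adjusted p = 0.0583), rho of −0.89 (p = 0.0333, adjusted p = 0.0778) and r = −0.97 without them. Gabra3 had r = −0.98 with the medium spiny neuron level (exact p = 0.00278, adjusted p = 0.035), rho of −1.0 (p = 0.00278, adjusted p = 0.0583) and r = −0.99 without the 2 farthest. Gabrd had r = 0.86 with that level (exact p = 0.00833, adjusted p = 0.035), rho of 0.94 (p = 0.0167, adjusted p = 0.0583) and r = 0.94 without the 2 farthest, while Gabra5 had r = −0.94 (exact p = 0.0167, adjusted p = 0.05), rho of −0.89 (p = 0.0333, adjusted p = 0.0778) and r = −0.94.

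For Gabra2 the relations rested on the 2 farthest libraries. Its r was −0.83 with the cortical level (exact p = 0.0222, adjusted p = 0.0583; rho −0.83, p = 0.0583, adjusted p = 0.123) and −0.40 without those libraries, and 0.84 with the medium spiny neuron level (exact p = 0.0306, adjusted p = 0.0642; rho 0.94, p = 0.0167, adjusted p = 0.0583) and 0.46 without them. Gabrb1 and Gabrb2 had adjusted p of 0.239 to 0.773 for r with either list. With the 8 thalamic markers, whose levels separated the groups, adjusted p for r was 0.579 or more for each member. The cortical and medium spiny neuron levels move against each other in these libraries, so a relation to one cannot be told apart from a relation to the other.

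**Figure D4:**
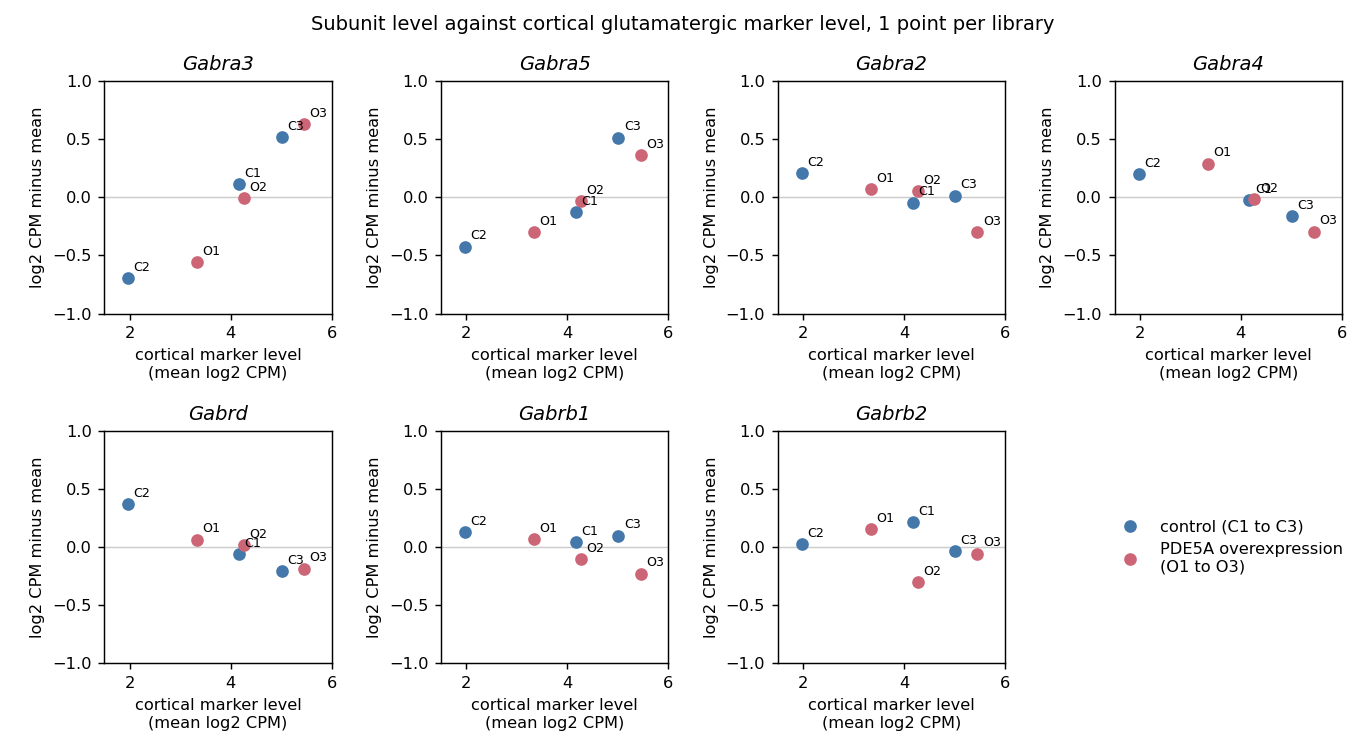
Log2 CPM of each subunit minus its mean over the libraries (y axis) against the mean log2 CPM of 11 cortical glutamatergic markers (x axis), with 1 point per library, blue for control and red for PDE5A overexpression. Gabra3 and Gabra5 climb from control 2 (marker level 1.97) to the libraries numbered 3 (5.01 and 5.45), Gabra4 and Gabrd descend, and control and overexpression points share each course.

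With the cortical marker level as a covariate, 0 members were called by edgeR's quasi-likelihood test, where 5 of all genes were, and the standard errors of the members tied to it became smaller. That of Gabra3 went from 0.42 to 0.09, with a log2 fold change of −0.23, a 95% interval from −0.43 to −0.04, an unadjusted p of 0.0226 and an adjusted p of 0.837. That of Gabrd went from 0.15 to 0.07 at a log2 fold change of 0.04, and that of Gabra4 from 0.16 to 0.08 at 0.095. Gabra5 had −0.17 (SE 0.11), and Gabrb1 had −0.14 (SE 0.07) with an unadjusted p of 0.0845. The change of sign of Gabra3 shows that its direction in these data depends on this choice.

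**Figure D5:**
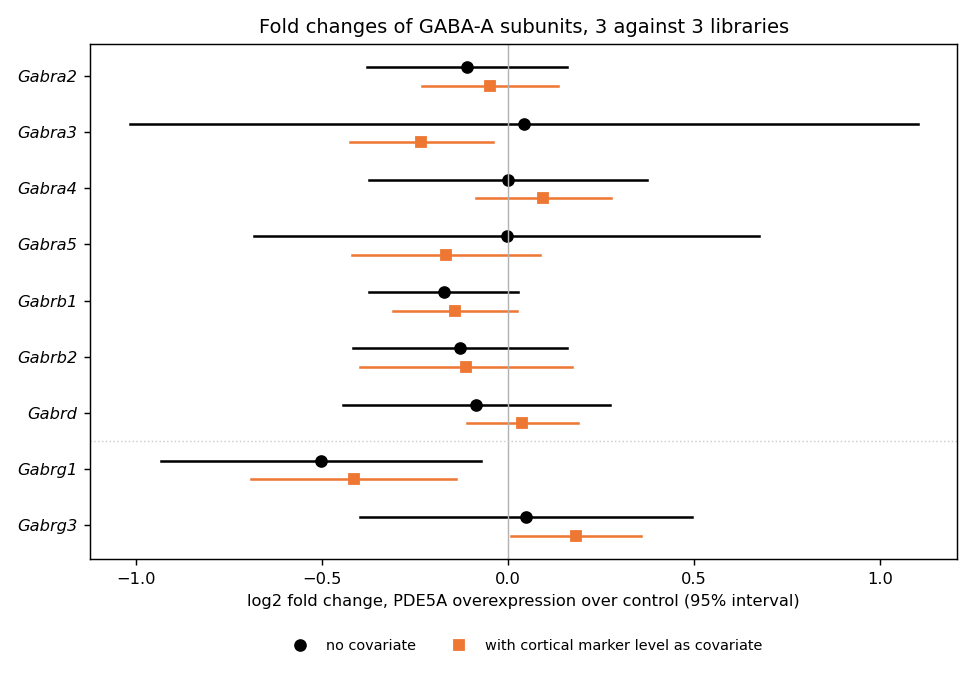
Log2 fold change of PDE5A overexpression over control (x axis) with its 95% interval for the 7 members and, under the dotted line, Gabrg1 and Gabrg3 (y axis). Black circles are the fit without covariate and orange squares the fit with the cortical marker level as covariate, in which the interval of Gabra3 narrows from −1.02 to 1.10 to between −0.43 and −0.04.

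Other subunit genes were set beside the members. Of 9 further genes, 5 passed the filter on low counts, 0 were called, and 4 had negative fold changes, with a median of −0.39 on the log2 scale. Gabrg1, for the gamma1 subunit and a neighbour of Gabra2, had 33.5, 41.1 and 34.5 CPM in the control libraries and 29.9, 28.4 and 18.7 CPM in the overexpression libraries. Every overexpression library was below every control library, as for 4.11% of all genes. The log2 fold change was −0.50 (SE 0.18), with an unadjusted p of 0.0281 and an adjusted p of 1.0 in edgeR's quasi-likelihood test. With the cortical covariate Gabrg1 had −0.415 (SE 0.121), with an unadjusted p of 0.00794 and an adjusted p of 0.645 in that test. Astrocytes are among the cells that express this subunit, and 10 of 10 astrocyte markers had negative fold changes, with a median of −0.19, and their part in the Gabrg1 difference was not tested. Gabrg3, for the gamma3 subunit, had 45.6, 58.5 and 39.1 CPM in the control libraries and 60.4, 45.7 and 42.1 CPM in the overexpression libraries, within each group the same order of libraries as Gabra4. Gabrq and Gabrr2, for the theta and rho2 subunits, had 0.907 to 1.84 CPM in all libraries, with log2 fold changes of −0.38 (SE 0.28) and −0.49 (SE 0.27). Gabra6, Gabrp, Gabrr1 and Gabrr3 had at most 6 counts in any library.

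Of 18 genes for proteins that anchor, traffic or assemble the receptor, all 18 were tested, 0 were called by edgeR's quasi-likelihood test, 0 had an unadjusted p under 0.05, and 7 had positive and 11 negative fold changes, with a median of −0.02. The smallest unadjusted p values were those of Hap1, a trafficking adaptor (log2 fold change −0.29, SE 0.18), Iqsec3, a partner of gephyrin at inhibitory synapses (−0.22, SE 0.14), and Slitrk3, an inhibitory synaptic adhesion protein (0.12, SE 0.08). The GABA-B receptor genes Gabbr1 and Gabbr2 had −0.05 and 0.16.

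Genes outside the subunit family were ranked by the Pearson r of their log2 CPM with that of each member over the 6 libraries, among 11564 protein-coding genes of at least 5 CPM. Fam155a and Sobp were most like Gabra3, at r = 0.999 each, and Usp22 and Tgfb1i1 most like Gabra5, at 0.996 and 0.994. Rasl10b and Zik1 were most like Gabra2 (0.999 and 0.997), Ksr2 among the 2 most like Gabrd (0.993), Slc8b1 and Mob1b most like Gabrb1 (0.989 and 0.986), and Ankhd1 and Snx13 most like Gabrb2 (0.993 and 0.991). Vrk1 was among the 2 most like Gabra4, at 0.995. With 6 points high values are common: r above 0.9 was reached by 7.11% of these genes for Gabra3, 5.76% for Gabra4 and 0.891% for Gabrb2.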

How the data were processed

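RNA-seq of striatum from C57 mice was used, 3 control samples and 3 samples overexpressing PDE5A, grouped by title. The deposited files hold whole-number counts per Ensembl gene, 1 file per sample, without normalization. Trizol RNA and a stranded TruSeq kit were used, per the labels' protocols. STAR 2.5.3a, FastQC 0.11.5, DESeq 1.16.1, Cuffnorm and build mm10 are named without roles, per the submitters' processing notes. The counting program is not given in the sources used here. Symbols, coordinates and exon lengths came from GENCODE M21, which matched 55154 of 55335 identifiers.

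Testing used R 4.3.3 and edgeR 4.0.16 (TMM factors, filterByExpr, robust quasi-likelihood F-tests, Benjamini-Hochberg adjustment over 19809 genes, two-sided, threshold 0.05). SE is the absolute log2 fold change over the square root of F, and log2 CPM has a prior count of 2. limma 3.58.1 and DESeq2 1.42.0 served as alternatives. On counts simulated for 19809 genes of this comparison, the test found 30% of the genes given a 1.5-fold change and 78.7% of those given a 2-fold change. Of 139 genes called there, 12 had been given no change. Counts were drawn for each gene independently, without variation shared between genes, and changes were given to randomly picked genes. These percentages thus need not hold for members of wide spread such as Gabra3 and Gabra5. The members, lists and tests were chosen with earlier results of these data known, and the relations to marker lists were added after the values were seen. Named genes are the members, other subunits of at least 1 CPM, 3 partners with the smallest p and the 2 genes most like each member. Some subunits of the family and some genes that this rule selects are not reported here. Replicates differed beyond sampling noise (chi-square over its degrees of freedom, 20.3 to 54.5). Separate animals are not stated, so the p-values rest on sample-to-sample spread that may be technical.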

Additional observations from a re-analysis of the deposited data

How the results depend on the processing

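The count of members past the threshold was 0 under all 17 alternatives. Over all genes, 1 was called, and 83 with the DESeq2 Wald test, 65 with the likelihood ratio test and 5 with limma-voom. There were 5 with the cortical level as a covariate, 3 without a filter, and 1 to 2 when 1 library was left out. The members' median log2 fold change of −0.09 was −0.163 to −0.019 when 1 library was left out. It was −0.243 without overexpression libraries 1 and 2, those high in choroid plexus markers. That fit keeps overexpression library 3 alone in its group. The difference in summed log2 level, −0.07, was negative under all 9 alternatives run for it (−0.118 to −0.047).

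Gabra2, Gabrb1 and Gabrb2 had negative fold changes under all 17 alternatives, of −0.175 to −0.002, −0.256 to −0.107 and −0.249 to −0.019 with 1 library left out. On the same basis, log2 fold changes ran from −0.321 to 0.341 for Gabra3, −0.163 to 0.131 for Gabra4, −0.203 to 0.309 for Gabra5 and −0.197 to 0.104 for Gabrd, so the signs of these 4 depended on single libraries. Without overexpression library 1, Gabrb1 had −0.256, with an unadjusted p of 0.0141 and an adjusted p of 0.907 in edgeR's quasi-likelihood test. Without overexpression libraries 1 and 2 together, values went further from 0 for most members. These values compare the controls with overexpression library 3 alone. It had the highest cortical marker level (5.45 log2 CPM) and the lowest medium spiny neuron marker level (8.71) of all libraries. Gabra2 had −0.365, Gabrb1 −0.32, Gabra4 −0.311, Gabrd −0.243 and Gabrb2 −0.132, while Gabra3 had 0.567. With the cortical covariate the sign turned for Gabra3 (−0.233), Gabra4 (0.095) and Gabrd (0.039). Gabra4 and Gabra5 lay so near 0 that small shifts turned their sign. Gabra4 had 0.002 with DESeq2 size factors and with the Wald test, and 0.008 with upper-quartile factors. With at least 1 CPM in all libraries Gabra4 had 0.004 and Gabra5 0.001. Gabra5 had 0.002 with upper-quartile factors and 0.025 with limma-voom. Gabra5 moved further with libraries left out: 0.322 without overexpression libraries 1 and 2, 0.309 without control library 3 and 0.14 without overexpression library 1. Apart from the fit with overexpression library 3 alone, the lowest adjusted p of any member was 0.837. It was that of Gabra3 with the cortical covariate in edgeR's quasi-likelihood test.

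Whether replicate numbers pair the samples could not be decided. Same-numbered libraries had correlations of deviations from the group mean of −0.0202, 0.0272 and 0.292, and differently numbered ones ran from −0.343 to 0.35. Deviations sum to 0 within a group, which ties these correlations to each other. With the replicate block 3 genes and 0 members were called, and Gabra5 had 0.023. The SE went from 0.28 to 0.126 for Gabra5, from 0.42 to 0.32 for Gabra3 and from 0.086 to 0.085 for Gabrb1. Each member had at least 850 counts per library, and what limits the precision was not tested.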
